A study of Homo sapiens with 12 samples.

Results

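The RAB genes encode small GTPases of the secretory and endocytic pathways, and the promoters of 61 of them were examined for trimethylation of histone H3 at lysine 4 (H3K4me3) in BON1, a cell line from a pancreatic neuroendocrine tumor of a human donor. Members were chosen by symbol: RAB, a number and at most one letter, without a hyphen and without RAB29, among the protein-coding genes of GENCODE on GRCh37. They made up 61 of 20136 protein-coding genes. A promoter was taken as the bases up to 1 kb on either side of a gene's most 5′ annotated end, and it was called marked in a library when at least 1 bp of a deposited peak fell inside it. Control BON1/TGL/pQ cells were compared with BON1/TGL/HA-Bcl-xL cells, which overexpress Bcl-xL, a blocker of apoptosis, with an HA tag. Both carry TGL in their names, both were grown with puromycin, and the labels do not say whether either line is 1 clone. The question was whether overexpressed Bcl-xL changes H3K4me3. Libraries came from CUT&RUN, in which an antibody leads a nuclease to chromatin so that nearby DNA is cut out and sequenced, with 500000 cells per condition. The peak lists of 3 control and 2 HA-Bcl-xL H3K4me3 libraries were used, with those of 3 IgG reactions in each line as background. Of the HA-Bcl-xL H3K4me3 replicates, the one numbered 1 was not analysed here. Nothing in the labels says that replicates were separate cultures, so all spreads are those between these libraries and may be technical.

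A RAB protein works as a switch that is active and membrane-bound when it holds GTP and inactive when it holds GDP. Exchange factors turn it on, GTPase-activating proteins turn it off, Rab escort protein presents it for geranylgeranylation, and GDP dissociation inhibitors take it off membranes. Each membrane compartment carries its own set of RAB proteins, and in neuroendocrine cells the RAB3 and RAB27 proteins act in the docking and release of hormone granules. H3K4me3 sits around the start sites of active and poised genes, most of all at CpG-rich promoters.

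The control H3K4me3 lists held 17711, 12159 and 10247 peaks in replicates 1 to 3, and the HA-Bcl-xL lists held 16379 and 15497 in replicates 2 and 3. The number of fragments at a peak's summit, solved from its deposited fold and p-value, had a median of 9 to 12 per list, so single calls rest on few fragments. The lists hold peaks only, and a promoter without a peak is not shown to lack the mark. Among 8 neuroendocrine markers, CHGB and SCG2, which encode granule proteins, were marked in all 5 H3K4me3 libraries, whereas CHGA was marked in 1, SYP and TPH1 in 2, and ENO2, INSM1 and SSTR2 in 0. The 2 libraries were 1 of each line for SYP. For TPH1 both were HA-Bcl-xL libraries, with 6 and 10 fragments in peaks that did not overlap, their summits 566 bp into the gene and at -7 bp. INSM1 had a peak in all 5 within 2.5 kb. The 5 markers of fibroblasts, immune cells and liver, COL1A1, COL1A2, PTPRC, CD3E and ALB, had a peak in 0 libraries, and COL1A1 had one in 1 library within 2.5 kb.

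RAB promoters were marked in all 5 H3K4me3 libraries for 17 of the 61 genes (27.9%), against 21.3% of all protein-coding promoters. At least 1 library marked 38 members, against 48.2% of all promoters, and no library marked 23 members (37.7%), against 51.8% of all. The 17 were RAB1A, RAB1B, RAB2B, RAB30 and RAB33B of the Golgi group, RAB10 and RAB13 of polarized delivery, RAB3A, RAB3D and RAB27A of regulated secretion, RAB5B of early endosomes, RAB4B, RAB25 and RAB35 of recycling, and RAB23, RAB39A and RAB40C of the remaining group. A further 21 members were marked in 1 to 4 libraries. Of these, 6 lacked a peak only in control replicate 3, the library with the fewest peaks, and without it 23 members were marked in all remaining libraries, against 25.6% of all promoters.

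The stretches that the peaks of most libraries share are printed for 7 members, 5′ to 3′ on the gene's strand, with annotated exons left out and CG dinucleotides, the sites of CpG methylation, in capitals. RAB2B and RAB25 are shown as members with high and even summits, RAB3A as the secretory member with the highest mean rank, RAB5B as a member whose peaks also lie near a neighbouring gene, RAB13 as the member with the smallest p-value for summit fragments, RAB7A for a call that depends on the annotated 5′ end, and RAB9B as the sole member with a peak in each HA-Bcl-xL list and none in the control lists. They come from GRCh37. RAB2B lies at chr14:21945120-21945280 (minus strand, 161 bases ending next to the 5′ end, 8 CG). RAB25 lies at chr1:156030859-156030950 (plus strand, 92 bases ending next to the 5′ end, 3 CG). RAB3A lies at chr19:18315381-18315515 (minus strand, 135 bases from -663 to -529 of the 5′ end, 3 CG). RAB5B lies at chr12:56367341-56367444 (plus strand, 104 bases from -356 to -253, 2 CG). RAB13 lies at chr1:153958838-153958898 (minus strand, 61 bases from -64 to -4, 4 CG). These first 5 were under peaks in 5 libraries. RAB7A lies at chr3:128445705-128445812 (plus strand, 108 bases from 679 to 786 into the gene from the MANE Select 5′ end, 6 CG, under peaks of 3 libraries). RAB9B lies at chrX:103086724-103086792 (minus strand, 69 bases from 395 to 463 into the gene, 5 CG, under peaks of 2 libraries).
RAB2B: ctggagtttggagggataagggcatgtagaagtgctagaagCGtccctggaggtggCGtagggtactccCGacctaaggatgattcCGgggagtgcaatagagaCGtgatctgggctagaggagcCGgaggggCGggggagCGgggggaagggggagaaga
RAB25: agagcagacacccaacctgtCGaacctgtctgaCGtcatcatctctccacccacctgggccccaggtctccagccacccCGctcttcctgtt
RAB3A: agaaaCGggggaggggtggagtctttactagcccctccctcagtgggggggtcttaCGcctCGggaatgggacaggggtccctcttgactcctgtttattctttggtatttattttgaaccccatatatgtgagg
RAB5B: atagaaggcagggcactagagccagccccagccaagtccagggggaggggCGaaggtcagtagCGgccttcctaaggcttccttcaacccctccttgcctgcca
RAB13: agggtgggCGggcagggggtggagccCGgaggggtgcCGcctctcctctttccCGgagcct
RAB7A: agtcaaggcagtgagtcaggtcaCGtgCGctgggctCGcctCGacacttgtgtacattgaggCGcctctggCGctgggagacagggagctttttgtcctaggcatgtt
RAB9B: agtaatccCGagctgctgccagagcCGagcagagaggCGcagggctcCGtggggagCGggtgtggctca
The share of G and C in these 7 stretches ran from 52.6% (RAB3A) to 75.4% (RAB13). CG dinucleotides were densest in RAB13 and RAB9B and sparsest in RAB5B.

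Of the 8 members of regulated secretion, 3 were marked in all 5 libraries, 2 in some and 3 in none. Of all promoters, 21.3% were marked in all 5 and 51.8% in none. RAB3A, the best known RAB of synaptic vesicles and hormone granules, had 19, 16 and 11 fragments at its highest summit in the control libraries (replicates 1, 2 and 3, in this order throughout) and 19 and 15 in the HA-Bcl-xL libraries (replicates 2 and 3). Its 5′ end is at chr19:18314852, and the highest summit lay upstream of it in every library, between -373 and -615 bp. A second, lower peak with 10 to 13 fragments had its summit within 28 bp of the 5′ end in 4 of the 5 libraries, all but control replicate 3. The ranges of the lines overlapped, and 0.045 ± 0.25 (standard error) separated their mean log2 fragments, with an adjusted p of 1.00 in limma's test.

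RAB27A, which tethers granules to the actin cortex through its effectors, had 13, 9 and 10 fragments in the control libraries and 8 and 13 in the HA-Bcl-xL libraries. Its 5′ end at chr15:55611311 lies 6 bp from a transcript start of PIGB or PIGBOS1, so that a peak there cannot be given to 1 gene. The MANE Select transcript, the single transcript per gene on which the RefSeq and Ensembl annotations are matched, starts 29300 bp further into the gene, and there a peak was listed in control replicate 2 alone, with 9 fragments. RAB3D, the RAB3 form of exocrine granules, had 12, 15 and 8 fragments in control and 14 and 9 in HA-Bcl-xL libraries at a 5′ end (chr19:11456946) that is shared to within 1 bp with CCDC159 or TMEM205. At its MANE Select start, 6613 bp into the gene, RAB3D was marked in 4 libraries, with 10 and 13 fragments in control replicates 1 and 2 and 15 and 10 in the HA-Bcl-xL libraries. With MANE Select starts, 1 of the 8 secretory members, RAB3A, was marked in all 5 libraries instead of 3, against 23.2% of the genes that have such a transcript.

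The other 5 members of this group were marked rarely or not at all. RAB3B had 9 fragments in control replicate 1, at -20 bp, and 5 in control replicate 3, at 953 bp, so the 2 calls were not the same peak. RAB3C had 14 fragments in HA-Bcl-xL replicate 2 alone. Its MANE Select start, 854 bp into the gene, was marked in 3 libraries, with 13 and 16 fragments in control replicates 1 and 2 and 14 in HA-Bcl-xL replicate 2. The 14 belonged to the peak already counted at the most 5′ end, at -392 bp of the MANE Select start and 1 of 2 peaks there. The control summits lay 250 and 280 bp past that start, so these were not the same peak. RAB26, RAB27B and RAB37 had a peak in 0 libraries at the most 5′ end. From there to the MANE Select start was 7822, 110617 and 66678 bp, and a peak was listed at that start in 0, 0 and 1 library. The single RAB37 peak, in control replicate 2, had 7 fragments. RAB26, which acts in the maturation of granules, had a peak near the start of some annotated transcript in 3 libraries.

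**Figure D1:**
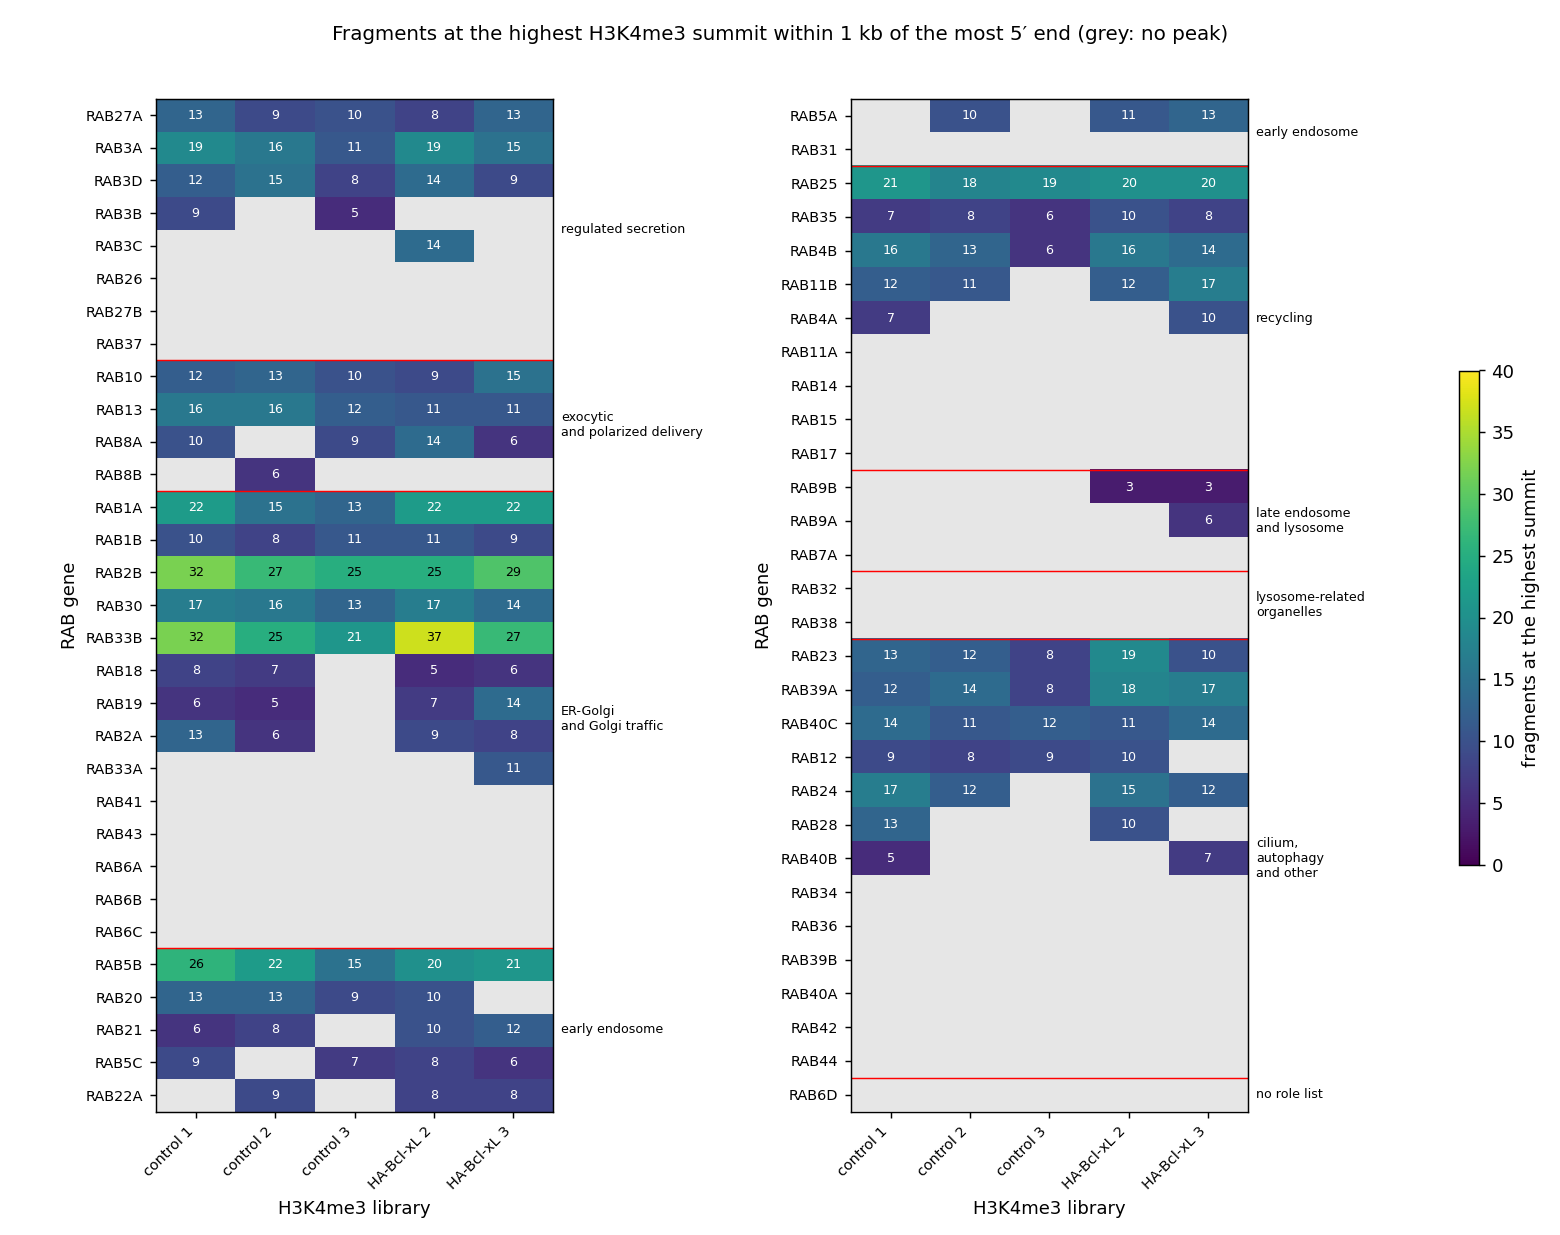
Fragments at the highest H3K4me3 summit within 1 kb of the most 5′ end (colour and printed number) for each of the 61 RAB genes, in rows by role group, and each of the 5 libraries, in columns; grey cells had no peak. RAB33B and RAB2B had the highest values, 21 to 37, and RAB9B is the only row filled in both HA-Bcl-xL columns and in none of the control columns, with 3 fragments each.

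The Golgi group held the highest summits of the family. RAB33B, a Golgi RAB that also binds the autophagy protein ATG16L1, had 32, 25 and 21 fragments in the control libraries and 37 and 27 in the HA-Bcl-xL libraries. When the peaks of each library were ranked by the authors' -log10 p, RAB33B stood at a mean percentile of 95.7 over the 5 lists. Its summit stayed between -87 and -123 bp of the 5′ end (chr4:140374386). RAB2B, which with RAB2A serves traffic between the endoplasmic reticulum and the Golgi, had 32, 27 and 25 fragments in control and 25 and 29 in HA-Bcl-xL libraries, at a mean percentile of 93.8. The lines overlapped at both genes.

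RAB2B had peaks on both sides of its 5′ end (chr14:21945119) in every library. A TOX4 transcript starts 205 bp into RAB2B on the annotation, and the peaks 576 to 662 bp into the gene, with 15 to 28 fragments, also lie near that start. RAB1A, the switch of transport from the endoplasmic reticulum to the Golgi, had 22, 15 and 13 fragments in control and 22 and 22 in HA-Bcl-xL libraries, at a mean percentile of 81.1. In 4 libraries its highest summit lay 207 to 232 bp into the gene. In control replicate 2 the 15 fragments belonged to a peak whose summit was 1297 bp in, and the summit near 217 bp had 10. RAB30 had 13 to 17 fragments and RAB1B 8 to 11.

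Of the 14 Golgi members, 5 were marked in all 5 libraries, 4 in some and 5 in none, where all promoters gave 21.3% in all 5 and 51.8% in none. Without control replicate 3 the 5 became 8, by addition of RAB2A, RAB18 and RAB19, against 25.6% of all promoters. RAB33A had a single peak, with 11 fragments in HA-Bcl-xL replicate 3. RAB6A, RAB6B, RAB6C, RAB41 and RAB43 had a peak in 0 libraries. RAB6C and RAB6D, the latter in no role group and also without a peak, are near-identical copies whose reads the aligner may not have placed in 1 gene. RAB43 was marked in 4 libraries within 2.5 kb.

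Of the 4 genes of exocytic and polarized delivery, RAB10 and RAB13 were marked in all 5 libraries (21.3% of all promoters), RAB8A in 4 and RAB8B in 1. With equal list lengths, or with a -log10 q of at least 5, none of the 4 was marked in all 5, against 17.9 and 15.3% of all promoters. RAB10, which serves insulin-regulated and basolateral delivery, had 12, 13 and 10 fragments in control and 9 and 15 in HA-Bcl-xL libraries. In control replicate 1 the peak lay at the 5′ end, with its summit at 34 bp. The peaks of the other libraries did not overlap it and had summits 609 to 765 bp into the gene. RAB13, a RAB of tight junctions, had 16, 16 and 12 against 11 and 11. Both HA-Bcl-xL values of RAB13 lay below all 3 control values. In control replicate 3 the 12 fragments belonged to a peak at -483 bp, and the peak over the 5′ end (chr1:153958834) had 10 there, so that at the 5′ end itself the lines overlapped.

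Early endosomes and recycling gave 1 of 7 and 3 of 9 members marked in all 5 libraries, against 21.3% of all promoters. The 3 became 1 with a -log10 q of at least 5 (15.3% of all promoters). The 1 became 2 without control replicate 2 (23.2%), control replicate 3 (25.6%) or HA-Bcl-xL replicate 3 (22.2%). RAB5B, 1 of the 3 RAB5 forms that drive early endosome fusion, had 26, 22 and 15 fragments in control and 20 and 21 in HA-Bcl-xL libraries, at a mean percentile of 90.8. It had peaks on both sides of its 5′ end (chr12:56367697) in every library. The upstream ones, with 14 to 18 fragments at -293 to -338 bp, lie between RAB5B and a transcript start of PMEL, a melanosome protein gene, at -596 bp. RAB5C was marked in 4 libraries with 6 to 9 fragments and RAB5A in 3 with 10 to 13. The 5′ end of RAB5A lies 72 bp from one of EFHB.

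RAB25, the epithelial form of the RAB11 family, had 21, 18 and 19 fragments in control and 20 and 20 in HA-Bcl-xL libraries. The lines overlapped, and the summit kept between -29 and -37 bp of the 5′ end (chr1:156030951). It stood at a mean percentile of 92.8 although its promoter has a CpG ratio (observed over the number its base composition gives) of 0.345, the lowest of the 17 members marked in all libraries. RAB4B had 16, 13 and 6 fragments in control and 16 and 14 in HA-Bcl-xL libraries. The 6 belonged to a peak at -211 bp, whereas the summits of the other 4 libraries lay at -594 to -620 bp. RAB35 had 7, 8 and 6 against 10 and 8, in peaks at different places. Its strongest summits lay 700, 648 and 148 bp into the gene in control and at -108 and 654 bp in HA-Bcl-xL libraries. The peak with 10 fragments, in HA-Bcl-xL replicate 2, overlapped no control peak. RAB11B was marked in 4 libraries, all but control replicate 3, with 11 to 17 fragments.

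None of the 3 late endosome genes was marked in all 5 libraries, against 21.3% of all promoters. RAB9B was the only member marked in every library of one line and in none of the other, against 0.844% of all promoters in that direction. Both of its peaks, in HA-Bcl-xL replicates 2 and 3, rested on 3 fragments, the smallest number in any list, and ranked at the 3.62 and 4.16 percentile of their lists. They were 171 and 96 bases wide with summits 425 and 442 bp into the gene (5′ end chrX:103087187). With at least 5 fragments required, or with lists of equal length, RAB9B was not called in both. With 1 library left out, 3 members met this pattern without control replicate 2 (1.25% of all promoters) or HA-Bcl-xL replicate 2 (2.31%), and 2 without HA-Bcl-xL replicate 3 (2.53%). No member was marked in all 3 control and no HA-Bcl-xL library, against 0.248% of all promoters. There was 1 with equal list lengths (0.392% of all promoters), with a -log10 q of at least 5 (0.209%) or without control replicate 2 (0.646%), and 2 without HA-Bcl-xL replicate 2 (1.16%). RAB9A, which like RAB9B serves return from late endosomes to the Golgi, had 1 peak, with 6 fragments in HA-Bcl-xL replicate 3. RAB32 and RAB38, the RABs of melanosomes and other lysosome-related organelles, had a peak in 0 libraries by any choice of 5′ end.

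In the group of cilium, autophagy and other roles, 3 of 13 members were marked in all 5 libraries, against 21.3% of all promoters. RAB23, a brake on hedgehog signaling, had 13, 12 and 8 fragments in control and 19 and 10 in HA-Bcl-xL libraries, at a mean percentile of 73.6. RAB39A, a RAB of phagosomes and late endosomes, had 12, 14 and 8 in control and 18 and 17 in HA-Bcl-xL libraries, so that both HA-Bcl-xL values lay above all 3 control values. The peaks lay in 2 places. A summit 512 to 521 bp into the gene was called in control replicate 2 with 14 fragments and in HA-Bcl-xL replicates 2 and 3 with 18 and 17. A summit at 877 to 923 bp was called in control replicates 1, 2 and 3 with 12, 10 and 8 fragments and in HA-Bcl-xL replicate 3 with 7. The 5′ end of RAB39A lies 155 bp from one of SLC35F2, and its mean percentile was 77.1. RAB34, which acts in early steps of cilium formation, had a peak in 0 libraries within 1 kb and in all 5 within 2.5 kb, at -1548 to -1575 bp with 14 to 22 fragments.

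**Figure D2:**
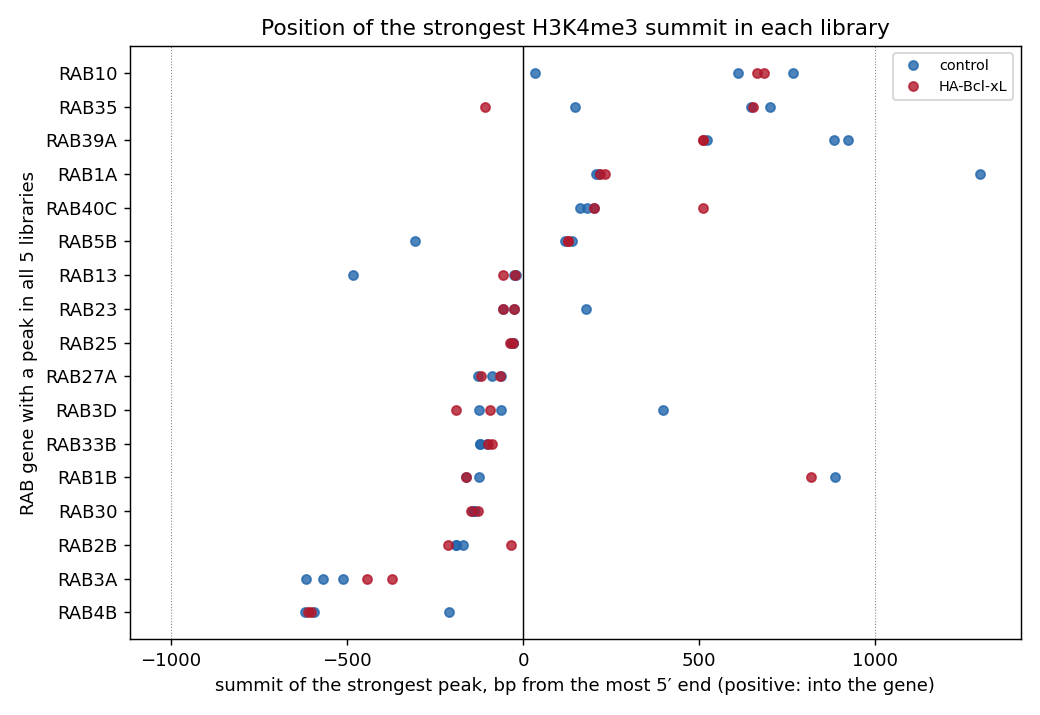
Position of the highest summit in each library, in bp from the most 5′ end (0; positive into the gene), for the 17 RAB genes marked in all 5 libraries; blue points are control and red points HA-Bcl-xL libraries, and dotted lines mark 1 kb. At RAB25, RAB33B, RAB30, RAB27A, RAB2B, RAB13, RAB4B and RAB3A the highest summit lay upstream of the 5′ end in every library, and at RAB1A, RAB10, RAB39A and RAB40C it lay in the gene in every library.

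Highest summits fell upstream of the 5′ end for 46.9 to 51.6% of marked members per library, against 42.4 to 44.6% over all marked promoters. They fell within 200 bp of it for 40.6 to 50% of members and 38.4 to 40.5% of all. Beyond 500 bp into the gene lay 27.3 to 39.3% of members and 28.0 to 29.2% of all. These shares are descriptions over 22 to 32 members, and no difference between members and other promoters was tested.

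The 16 members that serve steps common to all cells were counted at both choices of start site. With the most 5′ end, 5 were marked in all libraries (RAB1A, RAB1B, RAB5B, RAB10 and RAB35), 7 in some and 4 in none. Of all promoters, 21.3% were marked in all and 51.8% in none. Without control replicate 3 the 5 members became 9, against 25.6% of all promoters. The 5 became 3 with equal list lengths or a -log10 q of at least 5, against 17.9 and 15.3% of all promoters. The 4 members without a peak were RAB6A of Golgi recycling, RAB7A of late endosomes, RAB11A of recycling endosomes and RAB14 of the Golgi and endosomes. With MANE Select starts, 5 members were again marked in all libraries, and each of the 16 was marked in at least 1. Of the genes that have such a transcript, 23.2% were marked in all and 47.1% in none.

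RAB7A, the master switch of late endosome and lysosome fusion, has its most 5′ end at chr3:128412512, and the MANE Select start lies 32514 bp further on. Near that start a peak was listed in control replicate 1 with 17 fragments and in HA-Bcl-xL replicates 2 and 3 with 15 and 20, at the 90.6, 87.2 and 94.9 percentile of their lists. The summit was 694 to 732 bp past the MANE Select start, inside the stretch printed above. For RAB14 the distance was 21145 bp, and 8 fragments in control replicate 3 and 12 and 9 in the HA-Bcl-xL libraries were found within 26 bp of the MANE Select start. For RAB11A it was 143437 bp, and control replicates 1 and 2 each had 13 fragments there. A start of some annotated RAB11A transcript was marked in all 5 libraries.

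At RAB6A the starts differed by 63 bp only. The highest summits, with 8 to 17 fragments, lay 1285 to 1451 bp into the gene, so that all 5 libraries counted within 2.5 kb and none within 1 kb. The MANE Select window reached 9 bases of that peak in control replicate 1 and 42 bases of a second peak in HA-Bcl-xL replicate 2, which had 7 fragments and its summit 1079 bp from the MANE Select start. RAB17, an epithelial recycling RAB that is not among the 16, went from 0 libraries to 4 at a MANE Select start 10880 bp into the gene, with 14 and 11 fragments in control replicates 1 and 2 and 12 and 18 in the HA-Bcl-xL libraries. Over the family, MANE Select starts gave 15 members marked in all 5 libraries and 17 in none, against 23.2 and 47.1% of the 18922 genes that have such a transcript. With the starts of all annotated transcripts, 19 members were marked in all 5 libraries, 46 in at least 1 and 15 in none, against 26.5, 56.6 and 43.4% of all genes. A window of 2.5 kb at the most 5′ end gave 19, 41 and 20 members, against 25.6, 53.5 and 46.5%.

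**Figure D3:**
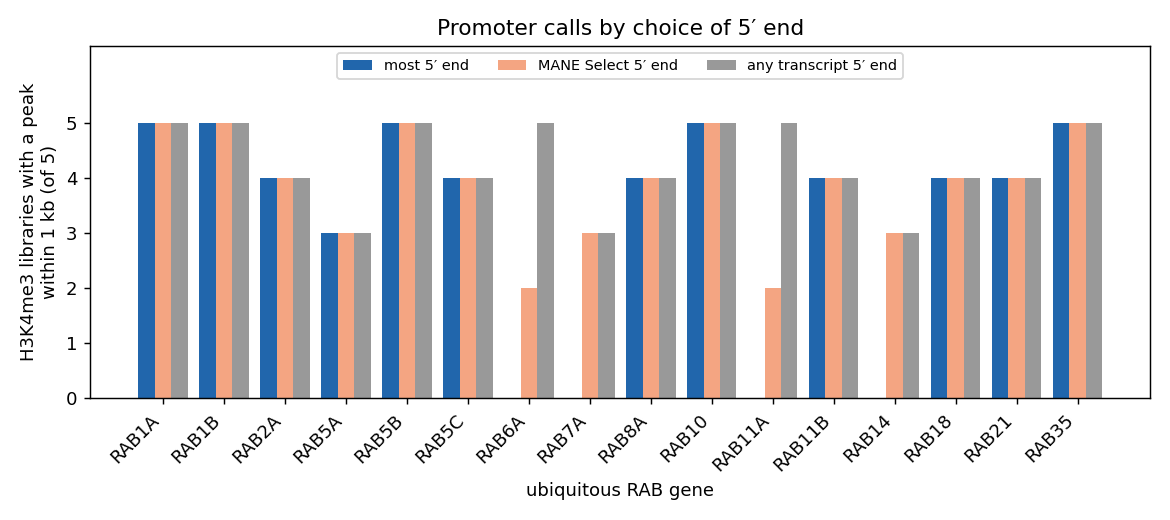
Number of H3K4me3 libraries, of 5, with a peak within 1 kb of the most 5′ end (blue), the MANE Select 5′ end (orange) and any transcript 5′ end (grey) of each of the 16 ubiquitous RAB genes. RAB6A, RAB7A, RAB11A and RAB14 have no blue bar, and each has an orange one of 2 or 3 libraries.

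The calls were set beside base composition and neighbouring genes. Bases within 1 kb of the 5′ end were 56.7% G and C at the median member (range 32.7 to 71.5%), against 55.0% for all promoters. When all promoters were ordered by this share and cut into 10 equal groups, 7 members fell in the 2 lowest groups, up to 47.1%. These were RAB11A, RAB14, RAB27B, RAB40A, RAB6C, RAB6D and RAB39B, and each had a peak in 0 libraries. Both readings were taken at the most 5′ end. For RAB11A, RAB14 and RAB27B the MANE Select start lies 143437, 21145 and 110617 bp further on, and was marked in 2, 3 and 0 libraries. Over all promoters, 2.43% of the lowest group and 13.8% of the next were marked in all 5 libraries. This share was highest in the fourth group, at 34.9%, and fell again to 9.84% in the most GC-rich one, where 1 of 3 members was marked in all 5. Median CG dinucleotides per 100 bases were 5.35 for the 17 members marked in all libraries, 6.10 for those marked in 1 to 4 and 3.55 for those marked in none, with 4.50 over all promoters. Among the 31 members in the middle range of the family, 50.5 to 61.0% G and C, 13 were marked in all 5 libraries and 7 in none, and of the 9330 promoters in that range 28.6 and 40.4%. The part of base composition in the calls was not tested.

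Another protein-coding gene started within 1 kb of the 5′ end of 9 members. Of these, 5 were marked in all 5 libraries (RAB2B, RAB3D, RAB5B, RAB27A and RAB39A), and 1, RAB36 beside RSPH14, in none. Of the 52 members without such a neighbour, 12 were marked in all 5 and 22 in none. A share of 55.6% with a neighbour and 23.1% without is a description of 9 and 52 genes, whose peaks cannot be divided between the paired genes. Over all promoters, 44.1% of the 3924 with such a neighbour and 15.8% of the 16212 without one were marked in all 5 libraries.

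In the IgG libraries, RAB20 and RAB23 had a peak in control IgG replicate 1, each with 3 fragments, which is 3.28% of members against 0.253% of all promoters there. The other 5 IgG libraries had a peak at 0 members, against 0.223 and 0.243% of all promoters in control replicates 2 and 3 and 0.0199, 0.0397 and 0.00497% in HA-Bcl-xL replicates 1 to 3. So 2 members had a peak in at least 1 IgG library, against 0.785% of all promoters. The RAB23 IgG peak (chr6:57086970-57087080) overlaps the place of its H3K4me3 peaks, which had 8 to 19 fragments. With all peaks that touch an IgG peak removed, 16 members were marked in all 5 libraries instead of 17, against 21.2% of all promoters.

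Members were marked more often in the HA-Bcl-xL lists as deposited. Control replicates 1 to 3 marked 31, 28 and 22 members (27 ± 4.58, SD, n = 3) and HA-Bcl-xL replicates 2 and 3 marked 32 and 32 (32 ± 0, n = 2). The difference of 5 members was near the control spread and was not tested. All promoters moved with it, at 40.4, 32.4 and 28.2% in control and 38.1 and 36.5% in HA-Bcl-xL libraries. With the 10247 strongest peaks of each list, the counts were 24, 26 and 22 members in control and 25 and 23 in HA-Bcl-xL libraries, a difference of 0. Without control replicate 3 the difference as deposited was 2.5 members. In each of the 5 libraries the share of marked members was above the share of all promoters, by 10.6 ± 2.83 percentage points in control (SD, n = 3) against 15.2 ± 1.16 with HA-Bcl-xL (n = 2). With lists of equal length the excess was 9.64 ± 2.51 points in control and 8.90 ± 2.12 with HA-Bcl-xL, so the order of the lines turned.

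**Figure D4:**
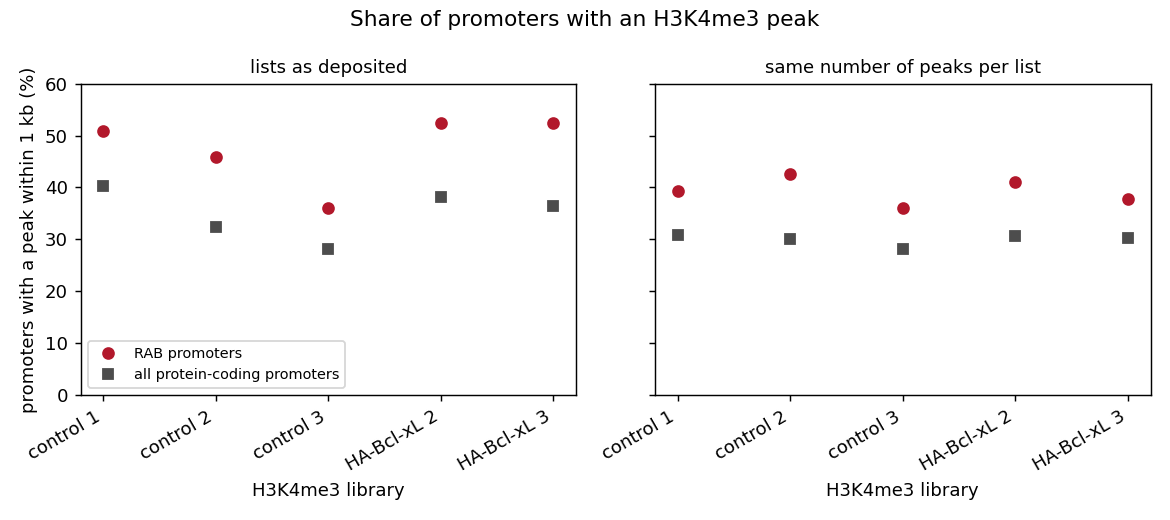
Percent of promoters with a peak within 1 kb in each H3K4me3 library, for the 61 RAB genes (red circles) and all 20136 protein-coding genes (grey squares), with lists as deposited (left) and cut to 10247 peaks each (right). RAB shares lay above those of all promoters in every library, and the gap between the lines at left is not seen at right.

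Fragments and widths at the 17 members marked in all libraries were compared between the lines with limma. This linear model draws each promoter's variance toward a value common to all promoters. It was fitted on log2 values of all 4289 promoters marked in all 5 libraries, after each library was centred on its median. For summit fragments 0 promoters passed an adjusted p of 0.05 (percent called 0, Benjamini-Hochberg), 256 had an unadjusted p under 0.05 (5.97%), and the smallest adjusted p was 0.405. For RAB13 the HA-Bcl-xL libraries were lower by -0.53 ± 0.25 (standard error) on the log2 scale, with an unadjusted p of 0.0414 and an adjusted p of 0.831. For RAB39A they were higher by 0.53 ± 0.26, with an unadjusted p of 0.0496 and an adjusted p of 0.832. These 2 of 17 were the members under an unadjusted 0.05, and neither passed the adjusted threshold. The next 3 by p-value were RAB1A at 0.31, RAB4B at 0.34 and RAB35 at 0.23, with adjusted p-values of 0.946 or above. In part these values compare peaks at different places, as given above for each of the 3. RAB4B was at 0.090 without control replicate 3 and at 0.53 without control replicate 2, and RAB35 at 0.042 without control replicate 1, at 0.072 without HA-Bcl-xL replicate 2 and at 0.38 and 0.37 without control replicate 2 and HA-Bcl-xL replicate 3. The median over the 17 members was -0.078, with 7 higher in HA-Bcl-xL, and the median over all promoters was -0.0054. Without the centring, all promoters shifted up by a median of 0.12 and 13 of the 17 members were higher, so the number of members higher or lower rests on the scaling.

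For width, the bases under peaks within 1 kb, 0 of the 4289 promoters passed (percent called 0), 210 had an unadjusted p under 0.05 (4.9%), and the smallest adjusted p was 0.834. RAB25 had 703, 277 and 153 bases in the control libraries and 134 and 159 in the HA-Bcl-xL libraries. Its peaks began within 6 bases of each other, at 156030853 to 156030859 on chromosome 1, and the 703 bases of control replicate 1 ran further into the gene. The log2 difference was -1.21 ± 0.46, with an unadjusted p of 0.0179 and an adjusted p of 0.962, while its summit fragments differed by -0.078. The lines overlapped, since control replicate 3 lay between the HA-Bcl-xL values.

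RAB23 covered 230, 113 and 85 bases in control and 171 and 333 in HA-Bcl-xL libraries, a log2 difference of 0.75 ± 0.44 that was 0.22 without HA-Bcl-xL replicate 3 and 1.28 without HA-Bcl-xL replicate 2. RAB33B covered 247, 168 and 114 against 465 and 175, a difference of 0.64 ± 0.45 that was -0.015 without HA-Bcl-xL replicate 2 and 1.30 without HA-Bcl-xL replicate 3. In HA-Bcl-xL replicate 2, RAB33B had a further peak of 92 bases 534 bp into the gene. RAB35 (-0.51, and -0.23 to -0.80 with 1 library left out, the ends being without HA-Bcl-xL replicates 2 and 3) and RAB3D (0.31, and 0.11 to 0.50, the ends being without control replicate 2 and HA-Bcl-xL replicate 2) completed the 5 smallest p-values, and the adjusted p was 0.988 for these 4 genes. Width sums all peaks within 1 kb, so at RAB35 it too joins peaks at different places. The 17 members had a median width difference of -0.092, and 8 were wider in HA-Bcl-xL. Over all promoters the median was -0.025. Without centring, all promoters shifted by 0.10 and 11 of the 17 members were wider.

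**Figure D5:**
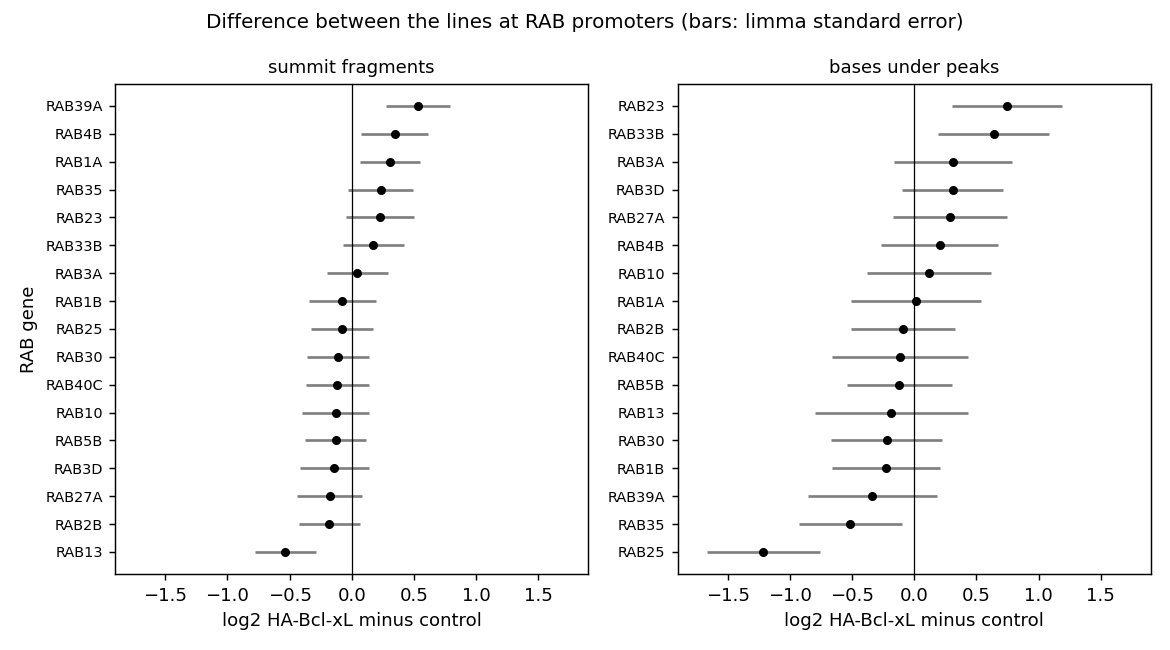
Log2 difference, HA-Bcl-xL minus control, in summit fragments (left) and bases under peaks (right) for the 17 RAB genes marked in all 5 libraries, after centring; points are limma estimates and bars their standard errors. RAB39A and RAB13 lie at the ends for fragments, 0.53 and -0.53, and RAB25 lies lowest for width at -1.21; no gene passed the adjusted threshold.

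Of 52 genes that load, switch or read RAB proteins, 13 (25%) were marked in all 5 libraries and 18 (34.6%) in none, against 21.3 and 51.8% of all promoters. The prenylation group had 3 of 7 marked in all: CHM, the Rab escort protein, and RABGGTA and RABGGTB, the subunits of the geranylgeranyl transferase. At CHM, control replicate 2 had a peak with its summit 447 bp into the gene. The other CHM calls rested on 21 to 63 bases of peaks at the outer edge of the 1 kb window, with summits at 991 to 1019 bp. That of HA-Bcl-xL replicate 3 had 5 fragments and ranked at the 3.51 percentile. GDI2, a GDP dissociation inhibitor, had a peak in 0 libraries at the most 5′ end and in 5 at its MANE Select start. RABGGTA had 20, 12 and 19 fragments in control and 17 and 14 in HA-Bcl-xL libraries. Of 13 exchange factors and activators, 6 were marked in all: RABIF, the RAB5 activators RABGEF1 and RIN2, and MON1A, MON1B and CCZ1, whose proteins together switch on RAB7. Of 11 GTPase-activating genes, 3 were marked in all: RAB3GAP1, RABGAP1 and TBC1D15. Of 21 effectors, 1 was marked in all, EXPH5, which binds RAB27 on granules, and 11 were marked in none, among them RPH3A, RIMS1, SYTL2, SYTL4 and SYTL5, which read RAB3 or RAB27. Of other readers of these RABs, SYTL1 was marked in 4 libraries, and RIMS2 in 0 within 1 kb and 5 within 2.5 kb. Effectors marked in all 5 libraries were 4 within 2.5 kb and 3 with the starts of all transcripts, against 25.6 and 26.5% of all promoters.

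Peaks in both HA-Bcl-xL and no control library were found at 3 of these 52 genes, against 0.844% of all promoters. DENND4C, an exchange factor for RAB10, had 9 and 10 fragments in HA-Bcl-xL replicates 2 and 3, at the outer edge of the 1 kb window, and within 2.5 kb it had a peak in a control library too. TBC1D1, a GTPase-activating gene of RAB10 and its relatives, had 5 and 5, and with the starts of all transcripts it was marked in 4 libraries, among them 2 control libraries. PLEKHM1, an effector of RAB7 in lysosome fusion, had 5 and 6. No gene of the 52 showed the opposite pattern, against 0.248% of all promoters. Neither this count nor the single RAB9B among the members was tested as a difference between the lines.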

How the data were processed

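CUT&RUN peak lists of 5 H3K4me3 and 6 IgG libraries were used, called per library on hg19 (GRCh37), as narrowPeak tables. Per the submitters' processing notes, bcl2fastq 2.20, Trimmomatic 0.36, Bowtie2 2.2.9, MACS2 2.1.1 and deepTools 3.5.1 were used; roles, settings and duplicate treatment are not given in the sources used here. The score, fold and -log10 p and q of each peak are the authors' deposited values. The -log10 p and q served to rank or filter within a list, and fold and -log10 p to solve the fragment numbers compared between libraries. The number of fragments at each summit was solved from the deposited fold and -log10 p, taking fold as (n + 1) over (background + 1) and p as a Poisson tail; a whole number was found to within 0.001 for 99.9 to 100% of peaks per H3K4me3 list. Whether these are fragments or single reads is not recorded, read totals are unknown, and PCR copies are not independent.

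Peaks outside chromosomes 1 to 22, X and Y were left out, and the rest were set against GENCODE release 44 lifted to GRCh37. RAB7B and PECAM1, held in the lists used, matched no protein-coding symbol there. Differences were fitted with limma 3.58.1 (R 4.3.3), and the fit was tested on simulated data; figures were drawn with matplotlib 3.10.9. Members, role lists and pathway lists were chosen with earlier results of these data known. Named were all secretory members, the 8 members with the highest mean percentile rank, members marked in all libraries of 1 line only, the 5 smallest unadjusted p-values per measure, unmarked ubiquitous members, and pathway genes marked in all libraries or differing between the lines. Others, such as RAB17, RAB34, RAB43 and single members of each group, were named after their values were seen. MANE Select starts and a minimum of 5 fragments were added after seeing the data.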

Additional observations from a re-analysis of the deposited data

How the results depend on the processing

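The number of members marked in all 5 libraries lay between 12 and 19 under 8 other settings (15.3 to 26.5% of all promoters) and between 17 and 23 with 1 library left out (21.6 to 25.6%), and the number marked in at least 1 between 35 and 46, and between 36 and 38. The difference of 5 members between the lines was 0 with equal list lengths and 1.33 with a -log10 q of at least 5, and 2.5 to 7 with 1 library left out, the lowest without control replicate 3. The 23 members without a peak were 15 with all transcript starts and 17 with MANE Select starts. Adjusted calls by limma stayed at 0 of all promoters except with a replicate block, which gave 13 for width and 1 for summit fragments, and with 1 library left out, which gave 0 to 9 for width, 9 without HA-Bcl-xL replicate 3, and 0 to 0 for fragments; a lone library of a line was there assumed to vary like the other line. None of these 14 block calls was a RAB member. For same-numbered libraries the labels give a shared number only. Their deviations from the line means correlated at 0.0256 and 0.0480 for width and 0.0175 and 0.0122 for fragments. These values cannot decide whether such libraries were handled together, since the deviations of 2 HA-Bcl-xL libraries mirror each other and summit fragments are few. Of the 50 values of named members with 1 library left out, 49 kept their direction and missed the threshold. The exception in direction was RAB33B width without HA-Bcl-xL replicate 2, at -0.015 in a range of up to 1.30; the cause was not tested. The 58 values under other settings kept direction and side. Those that moved by over 1.5 times were RAB33B and RAB3D width within 2.5 kb, at 0.15 and 0.081, and RAB35 fragments, at 0.042 with the replicate block and 0.36 without centring. Calls rest on few fragments at the summit, which limits what a single call can show.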
